A study of Mus musculus with 8 samples.

Results

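The paired immunoglobulin-like receptors are a family of mouse myeloid and B cell surface receptors, and 7 rows of the count table carry their symbols, Pirb, Pira1, Pira2, Pira4, Pira6, Pira7 and Pira11, of 24062 rows in all. They were picked by symbol, and the family was taken up because several Pira rows passed the test in the PARP1 deletion, so their levels in PARP1CKO against PARP1 WT chose them and stand here as a description. All 7 rows passed the filter on low counts. Total RNA was sequenced from immature myeloid cells (IMCs), which were grown out of bone marrow from C57BL/6 mice aged 2 months by 3 days of culture with 40 ng/mL of M-CSF, a macrophage growth factor.

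The 4 groups held 2 libraries each. PARP1 WT cells came from PARP1 flox/flox mice and PARP1CKO cells from mice that carried lysozyme-Cre as well. PARP2 WT cells came from PARP2 flox/flox mice and PARP2CKO cells from PARP2 flox/flox mice with lysozyme-Cre, so both control groups carried a floxed allele and neither carried Cre. Lysozyme-Cre is expressed from the promoter of a myeloid lysozyme gene, so deletion is limited to cells that have switched this promoter on. Nothing in the labels ties a library to an animal, and p-values measure the spread between the libraries given.

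PIR-A receptors are activating: they have a short cytoplasmic tail and signal through the Fc receptor common gamma chain, an adaptor encoded by Fcer1g. PIR-B is encoded by a single gene, Pirb, and is inhibitory, since its tail recruits the tyrosine phosphatases SHP-1 and SHP-2, and both kinds of receptor bind class I major histocompatibility molecules. The Pira genes are a cluster of close copies beside Pirb on chromosome 7, so a short read can match more than 1 of them.

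Depth lay between 37852450 and 61845125 counts per library. Levels are given as CPM, the counts of a row scaled to the library's total and its TMM composition factor. Parp1 had 202 and 211 CPM in PARP1 WT and 63.2 and 59.1 CPM in PARP1CKO, while Parp2 fell from 48.2 and 48.3 in PARP2 WT to 25.8 and 25.6 in PARP2CKO. Both targeted genes were therefore lower in the libraries that bear their deletion (adjusted p = 0.0134 for Parp1 and 0.000139 for Parp2, by the quasi-likelihood test of edgeR after Benjamini-Hochberg adjustment, as throughout).

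The sequences in front of the family's genes are shown first because they show how close the copies are there. The values of single rows rest on telling the transcripts of the copies apart, which these windows do not measure. RefSeq lists 3 of the 7 members, Pirb, Pira1 and Pira2, on GRCm38.p6, the assembly that mm10 is made from, and GENCODE M21 lists 2 of them. The symbols Pira4, Pira6, Pira7 and Pira11 were in neither annotation, so no position or sequence is given for those 4 rows. Lilra6, whose RefSeq synonym is Pira3, is a further row of the family. Each line is the 250 bases in front of the start that the RefSeq promoter table uses, 5′ to 3′, on the minus strand. That start is not always the outer end of the gene as given further on, and in Pira1, Pira2 and Lilra6 part of the window lies inside the RefSeq gene. Capitals mark the positions at which the windows that cover them do not all carry the same base.
Pirb, chr7:3720383-3720632: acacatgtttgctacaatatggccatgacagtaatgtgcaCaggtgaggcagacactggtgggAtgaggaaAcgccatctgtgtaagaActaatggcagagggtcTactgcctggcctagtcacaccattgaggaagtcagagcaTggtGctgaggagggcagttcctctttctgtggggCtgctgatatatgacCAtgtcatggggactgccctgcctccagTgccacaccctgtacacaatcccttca
Pira1, chr7:3739918-3740167: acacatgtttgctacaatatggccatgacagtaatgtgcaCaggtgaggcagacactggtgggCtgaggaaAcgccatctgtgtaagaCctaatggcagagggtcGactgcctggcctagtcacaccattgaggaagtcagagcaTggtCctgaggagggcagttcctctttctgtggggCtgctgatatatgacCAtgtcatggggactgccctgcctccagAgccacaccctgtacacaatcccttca
Pira2, chr7:3845052-3845301: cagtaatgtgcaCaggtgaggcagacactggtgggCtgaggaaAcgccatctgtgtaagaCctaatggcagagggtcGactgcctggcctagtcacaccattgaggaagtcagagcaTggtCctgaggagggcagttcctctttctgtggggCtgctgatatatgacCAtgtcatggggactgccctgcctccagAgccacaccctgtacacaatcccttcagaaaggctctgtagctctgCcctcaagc
Lilra6, chr7:3915502-3915751: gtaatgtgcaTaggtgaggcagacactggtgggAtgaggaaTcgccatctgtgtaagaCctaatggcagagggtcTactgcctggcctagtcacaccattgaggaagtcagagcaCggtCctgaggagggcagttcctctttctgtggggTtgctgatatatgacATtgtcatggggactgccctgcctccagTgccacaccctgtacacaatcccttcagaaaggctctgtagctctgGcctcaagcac

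The windows of Pirb and Pira1 started at the same base of the shared sequence and differed at 5 of 250 positions. The window of Pira2 differed from that of Pirb at 5 of the 222 bases they share, and the window of Lilra6 at 8 of 220. All 4 windows shared 220 bases, of which 209 were the same in all 4. The letters GAGGAAG, which occur in sites bound by ETS factors such as the myeloid regulator Spi1, were found in each window, with the first base 120 bases before that start of Pirb and of Pira1, 148 before that of Pira2 and 150 before that of Lilra6. These letters were searched on both strands and occurred in 3486 of the 32851 RefSeq promoter windows (10.6%), so the match is a description of the sequence and not a site.

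On GRCm38, Pirb lies on chromosome 7 from 3711409 to 3720391 and Pira2 from 3836812 to 3845051 (GENCODE M21, both protein coding, minus strand). RefSeq places Pira1 from 3731626 to 3739943, where GENCODE has a polymorphic pseudogene named Gm15922. Lilra6 lies from 3908280 to 3915503, and between Pira2 and Lilra6 is Gm14548, from 3884242 to 3898120. To see how far a read could be tied to 1 gene, every stretch of 75 bases, the read length, was compared among the annotated transcripts of 6 genes of the cluster. Of the 75-base words of Pira2, 86.9% also occurred in another gene of the cluster, and 83.0% of those at the Pira1 position did so. Pirb was more distinct, with 22.3% of its words shared with any other gene of the cluster and 13.2% with Pira2. How the counting treated reads with several matches is not given in the sources used here.

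Pirb, the inhibitory receptor, had the most counts of the members. It had 244 and 255 CPM in PARP1 WT against 245 and 227 in PARP1CKO, then 254 and 260 in PARP2 WT against 279 and 259 in PARP2CKO. The PARP1 groups overlapped and so did the PARP2 groups. Per kilobase of exon, Pirb lay between 50.7 and 62.4 CPM over the 8 libraries and Pira2 between 14.2 and 21.7 CPM, and the Pira2 value counts only the reads given to that row.

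Among the activating receptors, Pira2 had the highest counts. It had 70.2 and 72.5 CPM in PARP1 WT against 49.9 and 49.0 in PARP1CKO, then 64.5 and 62.0 in PARP2 WT against 75.2 and 62.7 in PARP2CKO. Both PARP1CKO libraries lay below all 6 others. Pira1 had 43.9 and 41.9 CPM in PARP1 WT against 29.8 and 29.5 in PARP1CKO, then 39.1 and 38.9 in PARP2 WT against 45.3 and 39.0 in PARP2CKO. PARP1CKO was again the lowest group, without overlap, and the other Pira rows repeated this.

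Pira7 had 38.0 and 36.2 CPM in PARP1 WT against 25.6 and 25.6 in PARP1CKO, then 33.6 and 32.5 in PARP2 WT against 38.7 and 33.5 in PARP2CKO. Pira4 had 36.9 and 35.5 CPM, 25.1 and 25.0 CPM, 33.2 and 31.6 CPM, and 37.8 and 32.7 CPM in the same order. These rows were close to each other in each library. Pira11 had 25.3 and 24.4 CPM in PARP1 WT against 17.3 and 17.6 in PARP1CKO, then 23.7 and 22.1 in PARP2 WT against 27.0 and 23.1 in PARP2CKO. Pira6 had the fewest counts of the members, with 14.3 and 16.5 CPM in PARP1 WT against 11.5 and 10.3 in PARP1CKO, then 16.6 and 15.2 in PARP2 WT against 18.5 and 15.1 in PARP2CKO. In all 6 Pira rows both PARP1CKO libraries were below all 6 others, as they were in 7.57% of all genes tested, and the highest library was PARP2CKO replicate 1. The first of these facts includes the contrast that chose the members, and nothing is read from it.

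**Figure D1:**
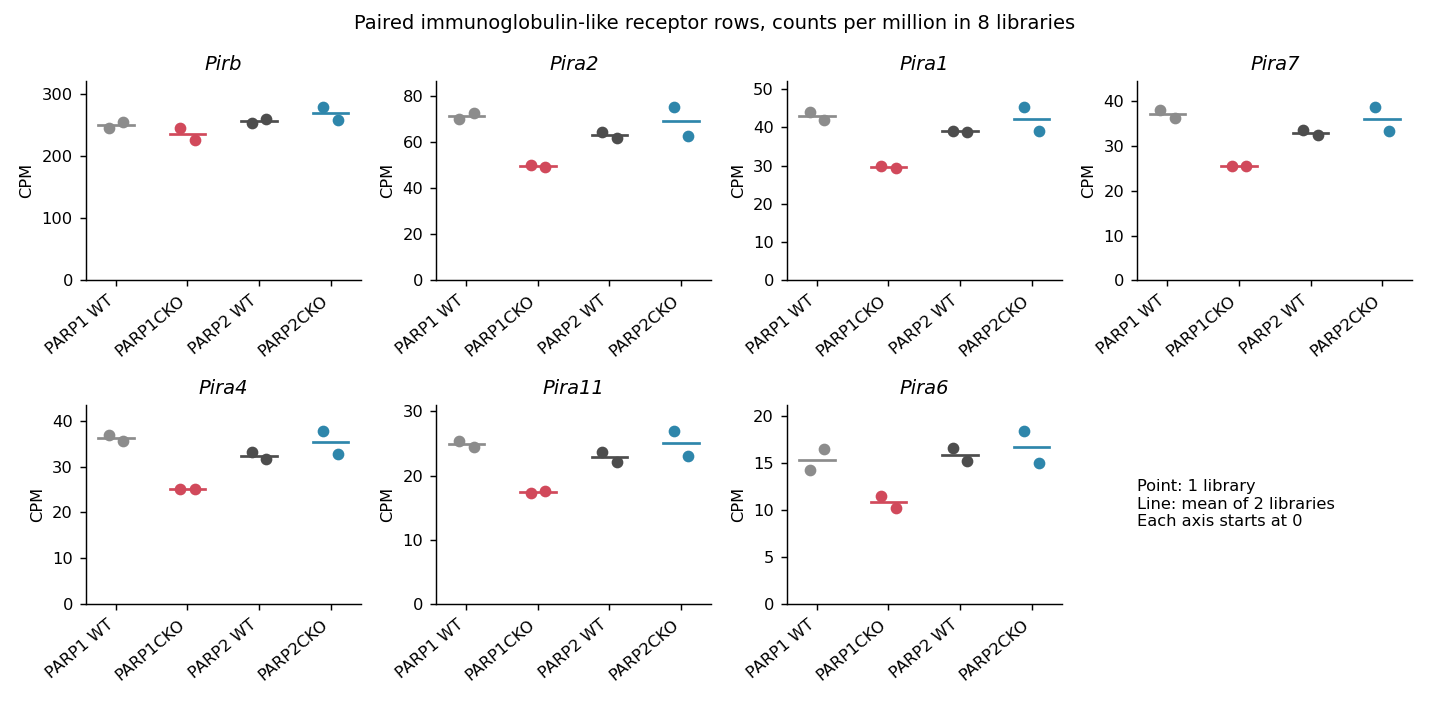
Level in CPM of each paired immunoglobulin-like receptor row in the 8 libraries; a point is 1 library, a line is the mean of the 2 libraries of a group, and each axis starts at 0. In the 6 Pira panels both PARP1CKO points lie below all others, and in the Pirb panel the PARP1CKO and PARP1 WT points overlap.

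In PARP1CKO IMCs the mean level of the 6 Pira rows differed from PARP1 WT by between -31.0% and -29.4%, and that of Pirb by -5.64%. On the log2 scale the difference was -0.53 for Pira1 (SE 0.0691), -0.54 for Pira7 (SE 0.0709), -0.53 for Pira4 (SE 0.0715), -0.53 for Pira2 (SE 0.0756), -0.51 for Pira11 (SE 0.0807) and -0.50 for Pira6 (SE 0.118). For Pirb it was -0.084 (SE 0.0542). Because this contrast chose the family, these differences are a description, and the adjusted p-values of this contrast are given only to show where the selecting threshold fell.

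Pira1, Pira7 and Pira4, 3 of the 7 members, had an adjusted p-value under 0.05 in the fit over all 13197 genes tested, all lower in PARP1CKO. Over all genes, 0.0758% were called lower and 0.0303% higher, and nothing is read from this comparison since the choice of members used it. The member just inside the threshold was Pira4, with an adjusted p of 0.0407, and the one just outside was Pira2, with 0.0549 and a difference of the same size. The groups did not overlap, with PARP1CKO lower, in 6 of 7 members, and in 20.2% of all genes tested, and nothing is read from this either. The median difference of the 7 members was -0.53 and that of all genes tested 0.0059.

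The count of 3 depended on the fit and on each library of PARP1 WT, PARP1CKO and PARP2 WT: it became 0 without any 1 of these 6, and 5 without either PARP2CKO library. It was 6 with DESeq2, with the likelihood-ratio test of edgeR and with no filter on low counts. With a crossed replicate block, chosen after seeing the data, it was 0. The log2 differences were then -0.532 for Pira1, -0.535 for Pira7 and -0.531 for Pira4, about as large as before. In PARP1CKO the differences of the Pira rows stayed below 0 in all alternatives run. Nothing is read from this, since both PARP1CKO libraries lay below both PARP1 WT libraries in each of these rows.

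The difference between PARP2CKO and PARP2 WT did not enter the choice of members and was tested, although all 8 libraries share the spread estimated in the fit that the choice used. The Pira rows were between 5.73% and 9.39% higher and Pirb 4.56% higher in PARP2CKO, on the mean, and none of these differences passed. On the log2 scale Pira7 differed by 0.13 (95% interval -0.027 to 0.29, adjusted p = 0.954, edgeR's quasi-likelihood test). Pira2 differed by 0.13 (95% interval -0.041 to 0.29, adjusted p = 0.954) and Pirb by 0.064 (95% interval -0.058 to 0.19, adjusted p = 0.958), both from the edgeR fit. The intervals of the 6 Pira rows together ran from -0.17 to 0.33. The difference between the 2 deletions was not tested.

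Of the 7 members, 0 were called in PARP2CKO by edgeR's quasi-likelihood test, 0 had an unadjusted p-value under 0.05, and DESeq2 and the likelihood-ratio test called 0 as well. Over all genes tested, 0.00758% were called higher and 0.0455% lower in this comparison. The groups overlapped in all 6 Pira rows, whereas 18.4% of all genes tested were higher in both PARP2CKO libraries without overlap and 18.8% lower. The median difference of the members was 0.12 and that of all genes tested -0.0014. Most of the size rested on 1 library. Without PARP2CKO replicate 1 the log2 difference turned to -0.013 for Pira2 and -0.077 for Pira6, and it stayed above 0, at most 0.019, in the other 5 members.

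Counted together, the 6 Pira rows gave 229 and 227 CPM in PARP1 WT against 159 and 157 in PARP1CKO, then 211 and 202 in PARP2 WT against 243 and 206 in PARP2CKO. The mean was 228 ± 1.13 CPM (SD, n = 2) in PARP1 WT and 158 ± 1.63 (SD, n = 2) in PARP1CKO. It was 206 ± 5.94 (SD, n = 2) in PARP2 WT and 224 ± 25.8 (SD, n = 2) in PARP2CKO. A read counted in several of these 6 rows would enter the sum more than once, and how many did was not measured. The PARP2CKO libraries were the ones that differed most within a group. The mean sum was lower in PARP2 WT than in PARP1 WT, but the Pira6 mean was not, at 15.9 against 15.4 CPM. Between these control groups the floxed allele and any other difference between these sets of mice cannot be told apart. With 2 libraries against 2 an exact two-sided permutation test of a single value cannot go below a p of 0.333, so the sum was not tested. In bulk RNA, fewer cells that express a gene and less of its RNA per cell cannot be told apart.

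Set against Pirb within the same library, activating and inhibitory rows stood in another proportion in PARP1CKO. There were 0.936 and 0.889 Pira counts for each Pirb count in PARP1 WT and 0.650 and 0.693 in PARP1CKO. Reads counted in several Pira rows limit these proportions as they limit the sum. The PARP2 WT libraries had 0.830 and 0.777 and the PARP2CKO libraries 0.870 and 0.796, so the PARP2 groups overlapped and the PARP1CKO libraries were again the lowest. The log2 ratio of the group means was -0.44 for PARP1CKO against PARP1 WT and 0.052 for PARP2CKO against PARP2 WT, and this ratio does not depend on the scaling between libraries. The first of these values uses the contrast that chose the members.

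**Figure D2:**
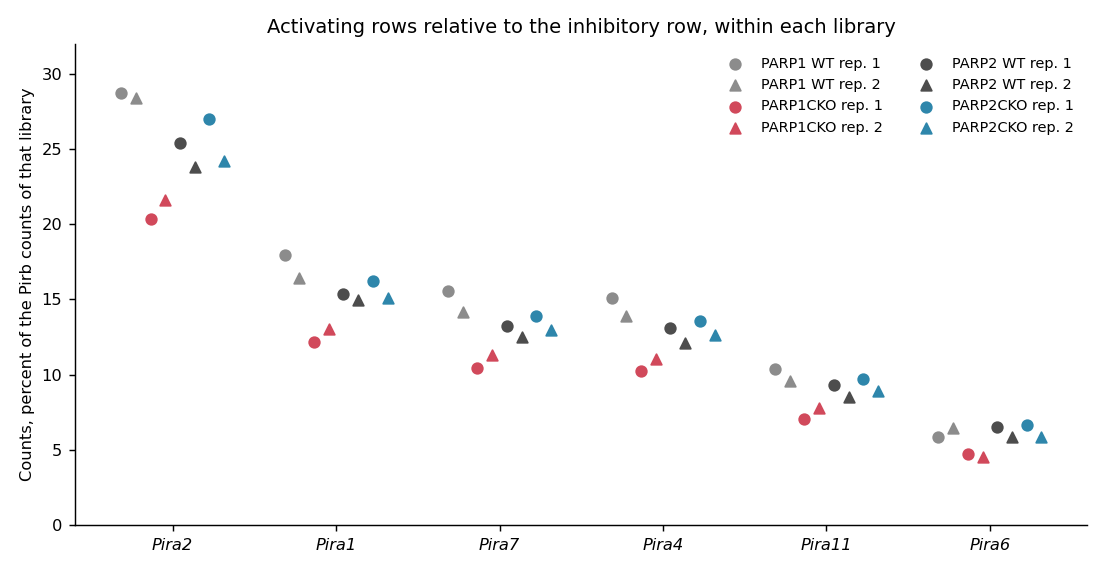
Counts of each Pira row as a percent of the Pirb counts of the same library, with 1 symbol for each of the 8 libraries. Pira2 runs from 28.7% and 28.4% in PARP1 WT to 20.4% and 21.6% in PARP1CKO, and in each row both PARP1CKO symbols are the lowest.

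The Pira rows, Pira6 excepted, also kept near-fixed proportions to each other. The ratio of Pira4 to Pira7 counts lay between 0.971 and 0.987 in the 8 libraries. Its coefficient of variation was 0.516%, where 2 rows counted from separate reads would vary by 3.57% from counting alone. Among Pira1, Pira2, Pira4, Pira7 and Pira11, a set of 5 grouped after its values were seen, the ratio of every one of the 10 pairs varied by less than counting of separate reads would give, between 0.516% and 2.94% against 2.95% to 3.96%. Since the set was formed from these ratios, nothing is read from its being uniform. The ratio of Pira1 to Pira2 was close to the spread from counting alone, at 0.935 of it.

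Pira6 stood apart from that set. Its ratio to each of the 5 varied between 1.58 and 2.00 times the counting spread. Its ratio to Gm14548, a row named here after its values were seen, lay between 1.11 and 1.22 and varied by 3.14% where counting would give 5.58%. Ratios to Pirb varied far more, by 12.3% for Pira1 against 2.49% from counting, which is 4.93 times as much. Read sharing was not measured in these libraries, and its part in the proportions was not tested.

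**Figure D3:**
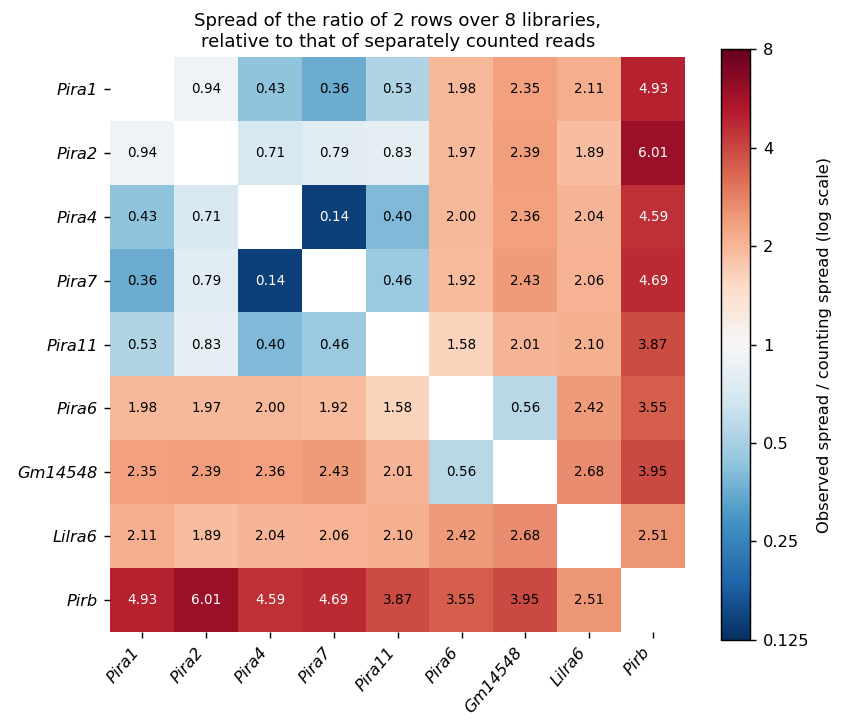
Spread of the ratio of 2 rows over the 8 libraries (coefficient of variation), divided by the spread that counting separate reads would give, on a log colour scale. The block of Pira1, Pira2, Pira4, Pira7 and Pira11 and the pair of Pira6 and Gm14548 are below 1, and all ratios to Pirb are above 2.

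The neighbours of the members in the cluster were read next. Lilra6 (Pira3), a PIR-A-like gene, had 8.30 and 11.2 CPM in PARP1 WT against 6.84 and 6.77 in PARP1CKO, then 7.24 and 7.88 in PARP2 WT against 8.88 and 8.01 in PARP2CKO. Its log2 difference was -0.52 in PARP1CKO (SE 0.137, adjusted p = 0.261, edgeR) and 0.16 in PARP2CKO (SE 0.134, adjusted p = 0.956, edgeR). Neither passed, although its groups did not overlap in either comparison. Gm14548 had a log2 difference of -0.48 in PARP1CKO (SE 0.117, adjusted p = 0.253, edgeR) and 0.094 in PARP2CKO (SE 0.110, adjusted p = 0.973, edgeR). Only 16.0% of the 75-base words of Lilra6 occurred in another gene of the cluster, against 58.5% for Gm14548.

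On the other side of Pirb, the 10 genes tested from Oscar to Rps9, picked for their position after the members' values were seen, had log2 differences in PARP1CKO from -0.074 to 0.65. They were below 0 in 4 and above 0 in 6. Without overlap, 1 of 10 was lower and 1 higher in PARP1CKO, against 20.2% and 21.0% of all genes tested. The value of 0.65 belongs to Oscar, an osteoclast-associated receptor with at most 0.243 CPM in these libraries. Beyond Lair1, at the far end, 4 genes were looked at and 3 were tested, also after the members' values were seen. These, Leng8, Leng9 and Cdc42ep5, were higher in PARP1CKO without overlap, with log2 differences of 0.21, 0.23 and 0.39 (adjusted p = 0.287, 0.580 and 0.726, edgeR). The difference in PARP1CKO was thus of the size of the Pira rows in Lilra6 and Gm14548 and smaller in Pirb and in Lair1, the next receptor gene.

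**Figure D4:**
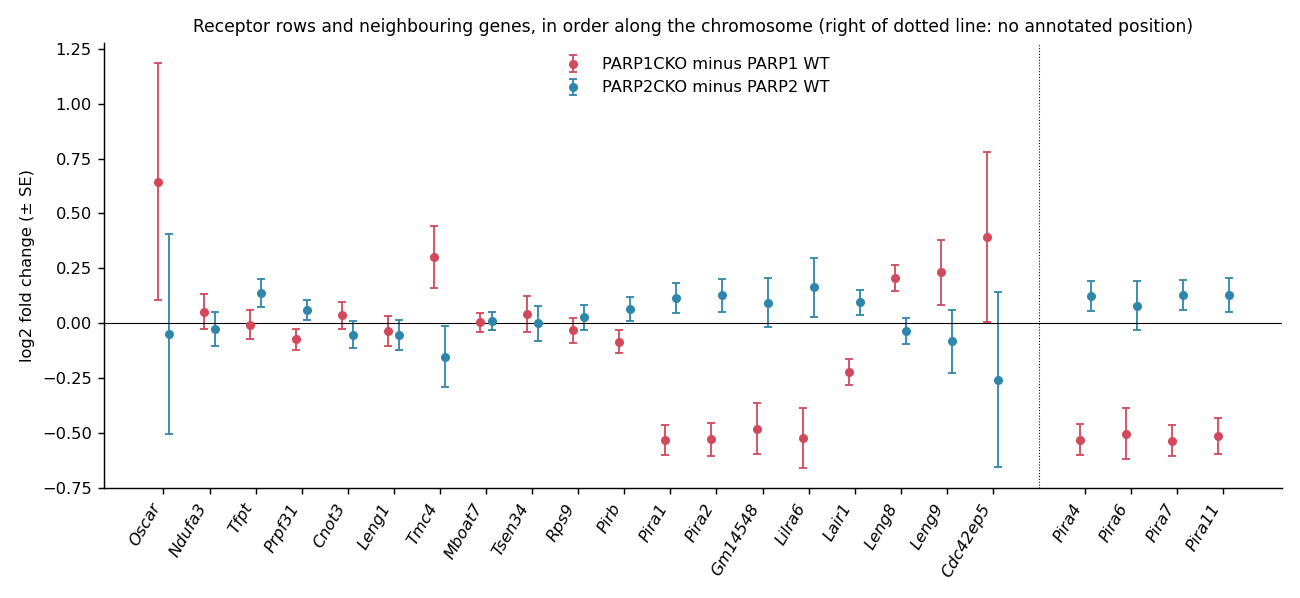
Log2 fold change with its standard error for the receptor rows and neighbouring genes in their order along chromosome 7 (not to scale), with rows of no annotated position to the right of the dotted line; red is PARP1CKO minus PARP1 WT and blue PARP2CKO minus PARP2 WT. Pira1, Pira2, Gm14548 and Lilra6 lie near -0.5 in PARP1CKO, Pirb at -0.084 and Lair1 at -0.22.

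Partner genes were listed by role: 51 symbols, of which 47 had a row and 45 were tested. None of the 45 was called in PARP1CKO by edgeR's quasi-likelihood test (0 of 45, with 9 at an unadjusted p-value under 0.05, as 11.3% of all genes tested had, 1 called by DESeq2 and 0 by the likelihood-ratio test). None was called in PARP2CKO either (0 of 45, with 6 at an unadjusted p-value under 0.05, as 4.83% of all genes tested had, and 0 called by DESeq2 or the likelihood-ratio test). In PARP1CKO, 10 of 45 were lower and 8 higher without overlap, against 20.2% and 21.0% of all genes tested. In PARP2CKO, 6 were lower and 17 higher, against 18.8% and 18.4%. Their median log2 difference was -0.0097 in PARP1CKO and 0.022 in PARP2CKO.

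Fcer1g, the adaptor through which PIR-A signals, had 858 and 852 CPM in PARP1 WT against 869 and 900 in PARP1CKO, then 793 and 856 in PARP2 WT against 769 and 782 in PARP2CKO. Its log2 difference was 0.049 in PARP1CKO (95% interval -0.061 to 0.16) and -0.089 in PARP2CKO (95% interval -0.20 to 0.022). Neither difference of the adaptor passed. Syk, the kinase recruited to the phosphorylated adaptor, had a difference of -0.10 in PARP1CKO (adjusted p = 0.407, edgeR) and 0.023 in PARP2CKO (adjusted p = 0.978, edgeR). Of the 7 activating adaptors and kinases, 3 were higher and 3 lower in PARP1CKO without overlap, against 21.0% and 20.2% of all genes tested, and 2 were higher and 2 lower in PARP2CKO, against 18.4% and 18.8%.

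The Src family kinases Lyn and Fgr, of the kinase family that phosphorylates the PIR-B tail, overlapped between groups in both comparisons. Their log2 differences in PARP1CKO were -0.029 and -0.011, and in PARP2CKO 0.036 and -0.16. Ptpn6 (SHP-1), Ptpn11 (SHP-2) and Inpp5d (the inositol phosphatase SHIP-1), which act downstream of inhibitory receptors, also overlapped in both. Their differences were 0.0073, 0.057 and -0.031 in PARP1CKO and -0.024, 0.022 and 0.023 in PARP2CKO.

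Of the class I ligand genes, H2-D1 had 872 and 768 CPM in PARP1 WT and 883 and 942 in PARP1CKO, a log2 difference of 0.15 (SE 0.0640, adjusted p = 0.419, edgeR). H2-K1 differed by 0.14 (adjusted p = 0.571, edgeR) and B2m, the light chain of class I molecules, by 0.053 (adjusted p = 0.703, edgeR). In PARP2CKO these differences were 0.082 for H2-D1, -0.064 for H2-K1 and -0.13 for B2m (adjusted p = 0.954, edgeR, for B2m). The ligand list had a median of 0.12 in PARP1CKO and 0.017 in PARP2CKO, and 3 of its 8 genes were higher without overlap in each, against 21.0% and 18.4% of all genes tested. In PARP2CKO 1 ligand gene, B2m, was lower without overlap, with 992 and 937 CPM in PARP2 WT against 877 and 891 (unadjusted p = 0.0289, edgeR), and in PARP1CKO 0 were.

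The related receptors of the list had the lowest median of the partner groups in PARP1CKO, -0.20 over 7 genes tested, Lilra6 among them. Without overlap, 4 were lower and 0 higher, against 20.2% and 21.0% of all genes tested. By edgeR's quasi-likelihood test 4 of the 7 had an unadjusted p-value under 0.05, as 11.3% of all genes tested had, and 0 were called. In PARP2CKO, 2 of the 7 were higher and 0 lower, against 18.4% and 18.8%, and 0 had such a p-value, against 4.83%. Lair1, an inhibitory collagen receptor next to the cluster, had 111 and 102 CPM in PARP1 WT against 94.3 and 88.0 in PARP1CKO, then 97.0 and 98.4 in PARP2 WT against 100 and 108 in PARP2CKO. Its log2 difference was -0.22 in PARP1CKO (SE 0.0581, adjusted p = 0.261, edgeR) and 0.095 in PARP2CKO (adjusted p = 0.954, edgeR). Gp49a, an activating gp49 receptor named after its values were seen, differed by -0.26 in PARP1CKO (SE 0.0721, adjusted p = 0.287, edgeR) and was the 1 partner gene that DESeq2 called (adjusted p = 0.0236). Lilrb4, its inhibitory counterpart, the row that RefSeq now names Lilrb4a, differed by -0.20 (SE 0.0674, adjusted p = 0.337, edgeR). In PARP2CKO, Gp49a differed by 0.0031 and Lilrb4 by -0.00046. Gp49a, Lilrb4, Lilra6 and Lair1 were the 4 related receptors with an unadjusted p-value under 0.05 in PARP1CKO (edgeR). Since Gp49a and Lilrb4 are counterparts and Lilra6 is a row of the Pira family, these are not 4 unrelated genes. The 17 other paired receptors of myeloid cells, such as the Cd300, Sirp, Clec4a and Fc gamma receptor genes, had a median of -0.037 in PARP1CKO, with 2 higher and 3 lower without overlap, against 21.0% and 20.2% of all genes tested. In PARP2CKO their median was 0.092, with 10 higher and 3 lower without overlap, 5 of 17 at an unadjusted p-value under 0.05 and, as in PARP1CKO, 0 called by edgeR's quasi-likelihood test. Over all genes tested, 18.4% were higher and 18.8% lower without overlap in PARP2CKO and 4.83% had such a p-value.

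The receptors were measured in a mixed culture, and marker lists describe its make-up, with genes singled out from them after their values were seen. Itgam, which encodes CD11b, had between 881 and 1035 CPM and Spi1 between 182 and 217 CPM, so both these myeloid genes were high in all 8 libraries. Of the 6 myeloid markers tested, 4 were lower and 0 higher in PARP2CKO without overlap, against 18.8% and 18.4% of all genes tested. Their median log2 difference was -0.24, and 3 had an unadjusted p-value under 0.05 (edgeR), as 4.83% of all genes had. In PARP1CKO 2 were lower and 1 higher, against 20.2% and 21.0%, with a median of -0.067. Lyz2, whose promoter drives Cre, is on this list and was among those lower without overlap in both comparisons. It was also among the 3 with an unadjusted p-value under 0.05 in PARP2CKO (edgeR). Ly6g had no row under that symbol, and of the Ly6C genes Ly6c2 was between 53.9 and 72.2 CPM and Ly6c1 between 0.605 and 1.02 CPM. Markers of macrophages summed to between 3771 and 4081 CPM in PARP1 WT and between 3910 and 4047 in PARP1CKO, and those of neutrophils to between 2880 and 3088 and between 2538 and 3213. Both sums overlapped between these groups. In the PARP2 groups the macrophage sums overlapped as well, at 4180 to 4423 CPM in PARP2 WT and 4368 to 4523 in PARP2CKO, while the neutrophil sums did not, at 3044 to 3272 and 2660 to 3022. Of the 8 neutrophil markers tested, 5 were lower in PARP2CKO without overlap, against 18.8% of all genes tested, and 2 had an unadjusted p-value under 0.05, Retnlg with a log2 difference of -0.61 (adjusted p = 0.371, edgeR) and Cxcr2 with -0.49 (adjusted p = 0.721, edgeR). Monocyte markers summed to 233 to 265 CPM in PARP1 WT, 194 to 237 in PARP1CKO, 283 to 300 in PARP2 WT and 263 to 279 in PARP2CKO. Of the 4 monocyte markers 1 was lower in PARP1CKO without overlap, against 20.2% of all genes tested. This was Ccr2, a chemokine receptor, with 71.3 and 69.8 CPM in PARP1 WT against 48.7 and 62.8, a log2 difference of -0.34 (SE 0.103, adjusted p = 0.289, edgeR). In PARP2CKO Ccr2 differed by -0.069 and its groups overlapped, while 2 of the 4 markers were lower without overlap, against 18.8% of all genes tested.

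Lyz2, the lysozyme gene whose promoter drives Cre, had 5711 and 6386 CPM in PARP1 WT and 3494 and 4334 in PARP1CKO, and also 9723 and 10800 in PARP2 WT against 6741 and 5746 in PARP2CKO, where the Pira rows overlapped. Its log2 difference was -0.63 in PARP1CKO (adjusted p = 0.135, edgeR) and -0.72 in PARP2CKO (adjusted p = 0.187, edgeR). B cell markers, which mark the other cells known to carry PIR receptors, summed to 29.6 to 34.8 CPM in PARP1 WT, 31.0 to 43.3 in PARP1CKO, 9.48 to 11.5 in PARP2 WT and 8.18 to 11.1 in PARP2CKO. They overlapped between each deletion and its control and differed between the PARP1 and PARP2 groups. The part of cell make-up in the Pira values was not tested.

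The genes whose levels ran most like those of the receptors over the 8 libraries were looked up by Pearson correlation of log2 CPM among 13188 genes outside the family. For Pirb these were Elavl1 (r = 0.971), an RNA-binding protein, Itga5 (r = 0.970), an integrin chain, Il1rn (r = 0.969), the interleukin-1 receptor antagonist, Acsbg1 (r = 0.968) and Zc3h12a (r = 0.967), an RNA-degrading regulator of inflammation. For the summed Pira rows they were Eif4b (r = 0.983), a translation initiation factor, Las1l (r = 0.969), Zfp619 (r = 0.967), Ddx39 (r = 0.963), an RNA helicase, and Utp6 (r = 0.959). The lists had no gene in common. With 8 libraries in 4 groups such values are common, since 118 genes had an r above 0.9 with Pirb and 40 with the summed Pira rows, and they are given as a description. Pirb and the summed Pira rows themselves had an r of 0.742 and a Spearman's rho of 0.429, and all these points share library depth and group.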

How the data were processed

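Total RNA libraries (single-end 75-base reads) of 8 IMC samples were analysed. The deposited values are raw counts per gene: the authors trimmed reads with fastq-mcf, mapped them to mm10 with TopHat 2.0.12, marked duplicates with Picard 1.127 and counted with featureCounts. The annotation, strand setting and treatment of reads with several matches are not given in the sources used here. Of 24062 genes, 6520 had no count and 13197 passed filterByExpr. Library totals ran from 37852450 to 61845125 counts, TMM factors 0.965 to 1.03 and the common biological coefficient of variation 0.055. Replicates differed by more than sampling noise.

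Comparisons used the quasi-likelihood test of edgeR (edgeR 4.0.16, limma 3.58.1, R 4.3.3) on all 8 libraries with a mean per group, Benjamini-Hochberg adjustment over all genes tested and a threshold of 0.05, and the scripts were tested on simulated data. DESeq2 1.42.0 was an alternative, and figures used matplotlib 3.10.9. Named genes were the 7 members and rows with a RefSeq synonym of the family, partner genes that passed, 13 preset partners including Syk and Lair1, Parp1, Parp2, and the 5 genes most like Pirb and the Pira sum; others are said to be chosen after their values were seen. A value for 1 of the preset partners is not reported here. The members and lists were chosen with earlier results of these data known. Promoters and names came from RefSeq, positions from GENCODE M21 or RefSeq. Alternatives changed the size factors, test, filter, libraries in the fit and pairing, and left out each library.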

Additional observations from a re-analysis of the deposited data

Results flagged for a closer look

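Of the 112 tested rows looked up here (members, partner lists, marker lists, genes near the cluster and the targeted genes), 10 had both libraries of one deletion on one side of their controls and both libraries of the other deletion on the opposite side. This is 8.93% of the rows looked up, against 6.62% of all 13197 genes tested. Of the receptor system, Fcer1g had a log2 difference of 0.0493 in PARP1CKO and -0.0888 in PARP2CKO, Lilra6 had -0.523 and 0.163, and Lair1 had -0.222 and 0.0949. Of the other paired receptors, Cd300a had -0.134 and 0.0961, Cd300lf had -0.187 and 0.0921, and Clec4a2 had -0.0824 and 0.205. Of the genes near the cluster, Prpf31 had -0.0744 and 0.061, and Tmc4 had 0.302 and -0.152. The marker Ly6c1 had 0.166 and -0.461, and Parp1, the gene deleted in PARP1CKO, had -1.75 and 0.373. In PARP2 WT, Parp1 was at 251 CPM in replicate 1 and 155 in replicate 2, against 263 and 264 in PARP2CKO, so the second value rests mostly on PARP2 WT replicate 2. In the quasi-likelihood fit of edgeR no value of the 9 rows other than Parp1 passed the adjusted threshold, and the difference between the deletions was not tested for any of the 10.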

How the results depend on the processing

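The log2 differences of all 7 members in PARP1CKO kept their direction in the 16 alternatives run for each. They ran from -0.57 to -0.50 for Pira1, -0.60 to -0.40 for Pira6 and -0.14 to -0.029 for Pirb. For the Pira rows nothing is read from this, since the groups did not overlap in the contrast that chose them. The 3 members called became 6 with DESeq2, 6 with the likelihood-ratio test and 6 with no filter on low counts. Leaving out each library in turn gave between 0 and 5, where a lone library is assumed to vary like the other groups. The partner genes called rose from 0 to 1 with DESeq2. In PARP2CKO, members and partner genes called stayed at 0 in every alternative, and without PARP2CKO replicate 1 the difference reversed to -0.0129 for Pira2 and -0.0769 for Pira6, while without PARP2CKO replicate 2 it was 0.251 and 0.216. Over all genes, 14 were called in PARP1CKO, against 86 with DESeq2, 146 with the likelihood-ratio test and 101 with no filter, and 7 in PARP2CKO, against 27, 39 and 26.

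Replicate numbers were shared between groups. Deviations of same-numbered libraries had a correlation of -0.133 in the PARP1 pair of groups and 0.147 in the PARP2 pair, and with 2 pairs each the libraries share only a number. With a replicate block, 3 members were called in PARP1CKO and 0 in PARP2CKO. A crossed replicate block, chosen after seeing the data, called 0 members in PARP1CKO, and the cause was not tested. The log2 difference of Pira1 in that fit was -0.532. Summed with Pirb, the family's log2 ratio was -0.28 in PARP1CKO and 0.089 in PARP2CKO. Whether shared reads limit what a single Pira row measures was not tested. Pira6, the member with the fewest counts, had at least 464 in each library.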
